A study of Homo sapiens with 7 samples.

Results

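Common fragile sites are stretches of the human genome in which chromosomes tend to break when DNA replication is slowed, and many of them lie inside very long genes that replicate late. The genes FHIT, WWOX, MACROD2, IMMP2L and LRP1B are known members of this group, and deletions inside them are frequent in tumours. Their 5-hydroxymethylcytosine (5-hmC), an oxidation product of 5-methylcytosine that the TET enzymes make with oxygen as a substrate and that is often found along the bodies of transcribed genes, was described in SK-N-BE(2) cells kept in low oxygen. A peak, a region called as enriched in captured 5-hmC DNA, was taken as a member when its midpoint lay in the body of 1 of the 5 genes. In build hg19 these bodies were FHIT on chromosome 3 (59.735 to 61.238 Mb), WWOX on chromosome 16 (78.133 to 79.247 Mb), MACROD2 on chromosome 20 (13.976 to 16.034 Mb), IMMP2L on chromosome 7 (110.303 to 111.203 Mb) and LRP1B on chromosome 2 (140.988 to 142.89 Mb). Peaks of all times merged into 1303 regions in these genes, of 414390 on chromosomes 1 to 22 and X. Between 0 and 2 peaks of a list overlapped a gene body with the midpoint outside it.

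The SK-N-BE(2) cell line comes from a neuroblastoma, carries an amplified MYCN gene and is labelled wild type here. Cells were kept at 1% oxygen (hypoxia) for 6, 12, 24, 48 or 72 h or at 21% oxygen (normoxia, labelled 0 h), and 1 captured library with 1 peak list represents each of the 6 times. No value therefore has a replicate error, a difference between 2 times is one between 2 libraries, and since normoxia was sampled at 0 h alone, low oxygen and time in culture cannot be told apart. The lists held between 284747 (0 h) and 351737 (72 h) peaks on chromosomes 1 to 22 and X, with no heights or read counts, so read depth is unknown and the sensitivity of peak calling in each library was not tested. Intervals given below cover counting error only.

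Peaks in the 5 genes kept pace with the lists. Together the genes held 809 peaks in the 0 h list, and 836, 833, 908, 1001 and 1079 in the lists of 6, 12, 24, 48 and 72 h. The 72 h list had 33.4% more peaks in the genes than the 0 h list, against 23.5% more peaks over all chromosomes and 33.2% more in the flanks, which were taken on both sides of each gene and were each as long as the gene. As a share of its list, this was 0.307% at 72 h (95% Clopper-Pearson interval 0.289 to 0.326%) and 0.284% at 0 h (0.265 to 0.304%). The ratio of these shares was 1.08, with an exact conditional interval of 0.985 to 1.18 that includes 1. At 6, 12, 24 and 48 h the ratio to 0 h was 1.01, 0.999, 1.03 and 1.05.

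**Figure D1:**
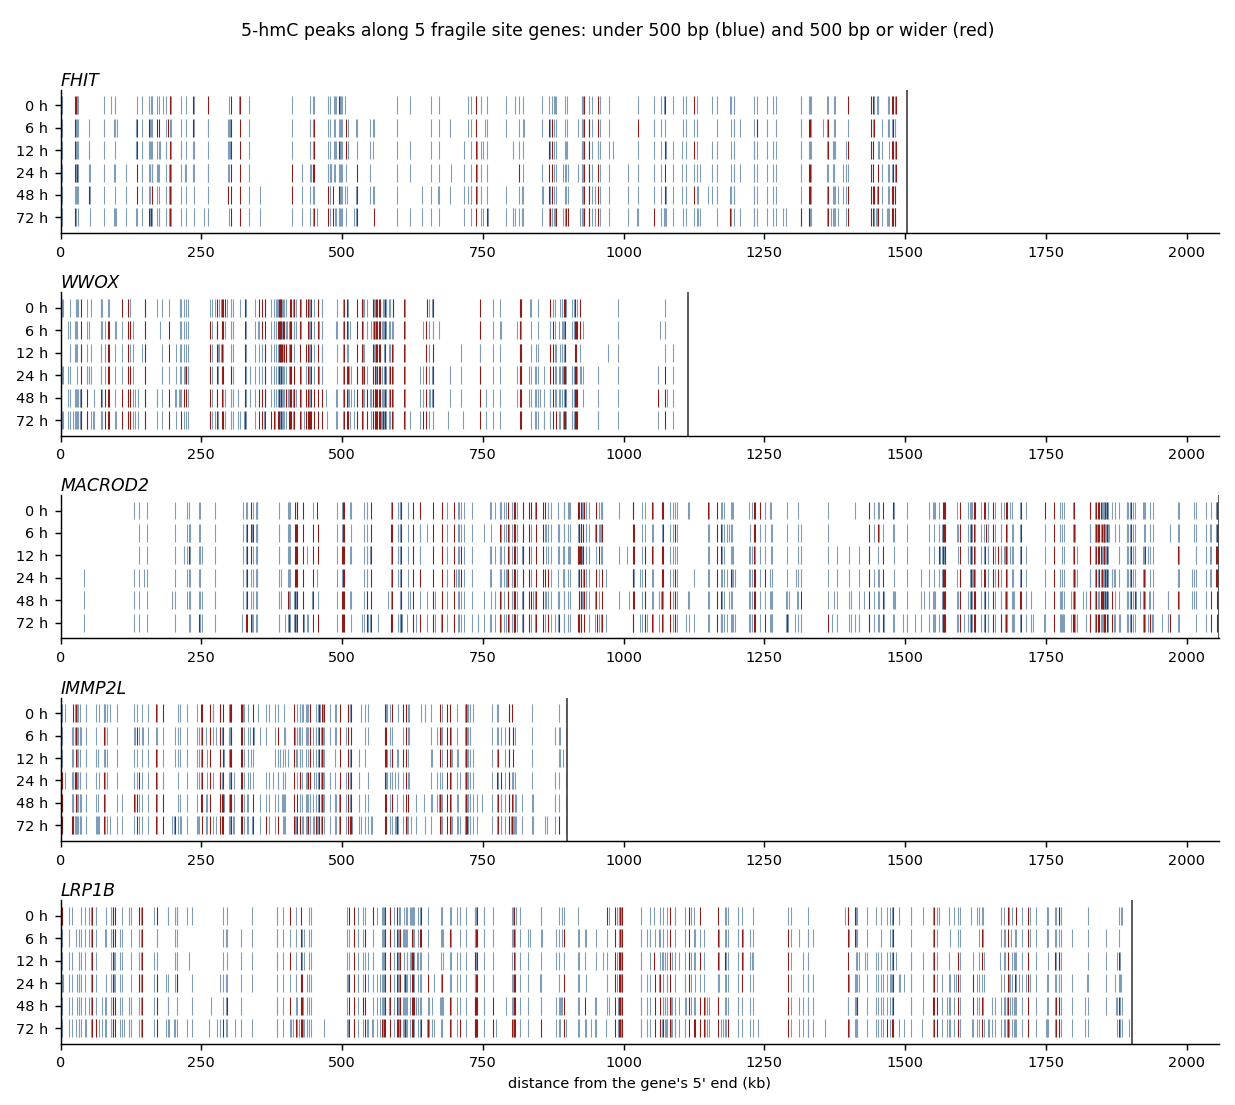
Position of every 5-hmC peak midpoint along the 5 genes, in kb from the gene's 5′ end, with 1 row of ticks per list from 0 h (21% oxygen) to 72 h (1% oxygen). Blue ticks are peaks under 500 bp, red ticks are peaks of 500 bp or wider, and the dark line marks the gene's 3′ end. Clusters of wide peaks recur across the rows, whereas empty stretches recur only in part. The stretch of 89.8 kb near the start of MACROD2 was defined as empty in all lists. The longest stretch without a peak in FHIT was 56.9 kb at 72 h and 90.4 kb at 0 h, and in IMMP2L 26.6 kb at 72 h and 47.3 kb at 0 h.

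Gene starts were looked at first, because start regions rich in CpG, the dinucleotide that carries most cytosine methylation, usually hold little 5-hmC. The RefSeq promoter table of build GRCh38.p14 held 4 of the 5 genes, and the 300 bases around their outermost start (250 before it and 50 after it) are shown, with each CpG in capitals, to set the sequence beside the presence or absence of a peak.
FHIT, chr3:61251403-61251702, minus strand: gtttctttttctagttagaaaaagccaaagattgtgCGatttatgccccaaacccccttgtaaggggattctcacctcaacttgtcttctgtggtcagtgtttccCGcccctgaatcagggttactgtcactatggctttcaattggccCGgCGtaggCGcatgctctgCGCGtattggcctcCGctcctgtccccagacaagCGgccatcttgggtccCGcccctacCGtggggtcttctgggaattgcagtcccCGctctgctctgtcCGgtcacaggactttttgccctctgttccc
WWOX, chr16:78099404-78099703, plus strand: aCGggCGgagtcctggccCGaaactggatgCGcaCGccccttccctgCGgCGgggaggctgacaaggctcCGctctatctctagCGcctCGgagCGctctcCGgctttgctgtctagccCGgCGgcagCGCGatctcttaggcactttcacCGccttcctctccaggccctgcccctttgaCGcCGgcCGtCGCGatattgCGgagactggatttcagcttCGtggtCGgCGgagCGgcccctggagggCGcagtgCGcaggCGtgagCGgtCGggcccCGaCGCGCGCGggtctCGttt
IMMP2L, chr7:111562443-111562742, minus strand: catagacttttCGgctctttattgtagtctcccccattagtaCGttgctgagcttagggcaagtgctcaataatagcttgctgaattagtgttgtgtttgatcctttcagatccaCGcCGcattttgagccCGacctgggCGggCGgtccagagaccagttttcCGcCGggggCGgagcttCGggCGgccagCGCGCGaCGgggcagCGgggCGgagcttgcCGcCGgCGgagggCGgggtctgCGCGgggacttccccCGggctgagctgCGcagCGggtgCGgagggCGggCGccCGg
MACROD2, chr20:13995266-13995565, plus strand: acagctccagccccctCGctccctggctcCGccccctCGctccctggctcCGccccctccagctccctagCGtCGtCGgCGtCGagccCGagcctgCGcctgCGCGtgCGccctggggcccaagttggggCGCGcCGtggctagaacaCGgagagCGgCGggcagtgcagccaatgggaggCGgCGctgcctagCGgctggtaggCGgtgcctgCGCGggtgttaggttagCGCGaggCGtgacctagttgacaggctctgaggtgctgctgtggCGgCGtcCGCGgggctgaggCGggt
The FHIT promoter holds 13 CpGs, close to the median of 14 over the 35116 promoters of this length in the table, whereas WWOX holds 38, MACROD2 34 and IMMP2L 31. LRP1B has no entry. The core letters of the hypoxia response element, searched as ACGTG and GCGTG on both strands, each contain a CpG and so overlap the capitals. ACGTG occurs in none of the 4 promoters and in 21.4% of all promoters. GCGTG occurs 2 times in WWOX, 2 times in MACROD2, 1 time in IMMP2L and not in FHIT, and in 36.5% of all promoters. These matches describe letters in this window and no binding.

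The hg19 gene starts are known here to the nearest kb, so distances to peaks are of that precision, and the peaks were not joined to the GRCh38.p14 positions. Within 1 kb of the FHIT start there was no peak at 0, 6 or 12 h and 1 peak at 24, 48 and 72 h, with widths of 245, 282 and 266 bp. These were narrow peaks, close to the narrowest of their lists (233, 232 and 242 bp). The WWOX start had a peak within 1 kb at 72 h alone (256 bp), and the IMMP2L start at 12 h alone (274 bp). No list had a peak within 3 kb of the MACROD2 start. By these rounded starts, LRP1B alone had 1 or 2 peaks within 1 kb of its start in every list. A cut-off of 1 kb is no larger than the precision of the starts, so whether LRP1B differs from the others there cannot be told. Within 3 kb, FHIT and IMMP2L also had 1 or 2 peaks in every list, and LRP1B had 3 or 4. A peak centred 0.612 to 0.816 kb before the rounded LRP1B start was present in all 6 lists, with widths of 845, 779, 648, 772, 745 and 1137 bp from 0 to 72 h. It was widest at 72 h, and at 0 h another peak of 249 bp lay between it and the start. At IMMP2L a peak stood 2.06 to 2.26 kb inside the gene in all 6 lists, with widths of 406, 400, 319, 583, 694 and 630 bp from 0 to 72 h. It was wider at 24, 48 and 72 h than at the 3 earlier times. The nearest peak to the MACROD2 start was 131 kb away at 0 h and 138.9 kb away at 6 and 12 h, and from 24 h on a peak of 258 to 277 bp stood 40.8 kb inside the gene.

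FHIT encodes an enzyme that cleaves diadenosine triphosphate and acts as a tumour suppressor, and its gene holds the fragile site FRA3B. Its body held 122 peaks in the 0 h list, and 126, 135, 140, 145 and 159 in those of 6, 12, 24, 48 and 72 h. It was the sparsest of the 5 genes in every list, with 10.6 peaks per 100 kb at 72 h (exact Poisson interval 9.0 to 12.4) and 8.12 at 0 h (6.74 to 9.69). Relative to the list total, the ratio to 0 h was 1.06 at 72 h (interval 0.828 to 1.35) and lay between 1.01 and 1.07 at the other times. The gene had fewer peaks than its flanks, at 0.862 times their density at 72 h and 0.836 times at 0 h. Peaks of 500 bp or wider numbered 34 at 72 h and 19 at 0 h, or 1.30 times relative to all such peaks of the lists. An interval for 1.30 was not computed, and whether wide peaks differed from the rest was not tested.

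WWOX encodes an oxidoreductase with WW domains, and its gene holds the fragile site FRA16D. Normoxic cells (0 h) had 142 peaks in WWOX, and cells in hypoxia had 150 (6 h), 136 (12 h), 162 (24 h), 183 (48 h) and 174 (72 h), so that 12 h was the lowest and 48 h the highest. The ratio to 0 h relative to the totals was 0.992 at 72 h (interval 0.790 to 1.247), 0.929 at 12 h and 1.09 at 48 h. The gene stood out from its surroundings in all 6 lists, with a peak density 2.56 times that of its flanks at 72 h and 2.70 times at 0 h. Peaks covered 8.15% of its length at 72 h and 6.03% at 0 h.

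MACROD2 encodes a hydrolase that removes ADP-ribose from proteins. It is the longest of the 5 genes (2.058 Mb), and its peaks numbered 238 in normoxia (0 h) and 236 (6 h), 247 (12 h), 248 (24 h), 282 (48 h) and 298 (72 h) in hypoxia. Its ratio to 0 h stayed between 0.953 and 1.01 at all 5 hypoxia times (72 h interval 0.852 to 1.21). The flanks had higher ratios. The flank before its start held 65 peaks at 72 h and 32 at 0 h, whereas the flank after its end held 194 at 72 h and 153 at 0 h. Peak density in the gene was therefore 2.30 times that of the flanks at 72 h and 2.57 times at 0 h. By covered length the ratio to 0 h relative to the lists was 0.9498 at 72 h.

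IMMP2L encodes a subunit of the mitochondrial inner membrane peptidase, which trims proteins on their way to the intermembrane space. The body is the shortest of the 5, and it contained 117 peaks in the 0 h list and 133, 116, 133, 146 and 175 in those of 6, 12, 24, 48 and 72 h. This is 49.6% more at 72 h than at 0 h, the largest proportional difference among the 5 genes. Relative to the totals the ratio was 1.21 (interval 0.953 to 1.54), and 12.9% of 1556 windows of 1.5 Mb across the genome were at or above it. The gene is shorter than these windows (0.9 Mb), and windows of its own length were not compared. At 24 and 48 h the ratio was 1.04 and 1.06. The flanks had 182 peaks at 72 h and 159 at 0 h before the start, and 115 at 72 h and 94 at 0 h after the end. The density of the gene was 1.18 times that of the flanks at 72 h and 0.925 times at 0 h. Peaks of 500 bp or wider numbered 43 at 72 h and 32 at 0 h, which is 0.980 times relative to all such peaks. No interval was computed for this value, which lies inside the interval of the ratio over all peaks. Whether wide peaks differed from the rest was not tested.

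LRP1B encodes an endocytic receptor of the LDL receptor family. Here 190 peaks were found in normoxia (0 h), and 191 (6 h), 199 (12 h), 225 (24 h), 245 (48 h) and 273 (72 h) in hypoxia, a larger number at each later time. Relative to the list totals and to 0 h this was 0.980, 1.02, 1.08, 1.09 and 1.16 times from 6 to 72 h. The interval of the 72 h value was 0.963 to 1.41, and 18.2% of the 1.5 Mb windows were at or above it. Peaks of 500 bp or wider numbered 67 at 72 h and 34 at 0 h, or 1.44 times relative to all such peaks. An interval for 1.44 was not computed, and whether wide peaks differed from the rest was not tested. The flanks of LRP1B had 468 peaks at 72 h and 313 at 0 h, and with them in place of the list total the ratio was 0.961. Peaks in the flanks thus had a higher ratio of 72 h to 0 h than those in the gene.

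**Figure D2:**
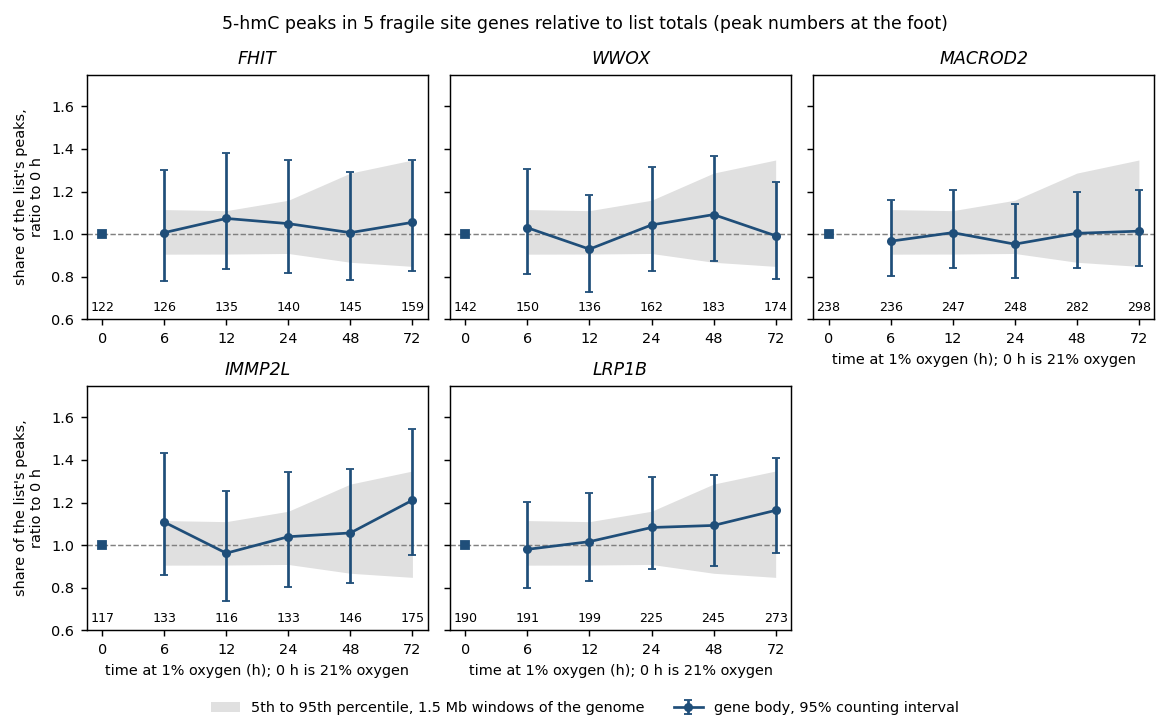
Share of each list's peaks that fell in each gene body, as a ratio to the 0 h list (vertical axis), against time at 1% oxygen in h, with 0 h at 21% oxygen. Points are single libraries, bars are 95% counting intervals, numbers at the foot are peak numbers, and grey bands span the 5th to 95th percentile of 1.5 Mb windows of the genome. The bands are not matched to the lengths of the genes, which are 0.9 to 2.058 Mb. All 5 intervals of every gene include 1, and the points of IMMP2L and LRP1B at 72 h are the highest.

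Whether a gene's share of the list followed time was tested over the 6 lists, with exact two-sided permutation over all 720 orders and Benjamini-Hochberg adjustment over the 5 genes and 8213 windows of 250 kb. No gene passed. LRP1B came closest, with a Spearman's rho of 0.943 (exact permutation p = 0.0167; Benjamini-Hochberg adjusted p = 0.167) and a Pearson's r of 0.955 (exact permutation p = 0.00417; Benjamini-Hochberg adjusted p = 0.0883). With the lists of 48 and 72 h left out, which lie farthest from the median of the 6 times, r for LRP1B was 0.899. For IMMP2L rho was 0.543 (p = 0.297 by exact permutation, 0.517 after adjustment) and r was 0.725 (p = 0.1 by exact permutation, 0.261 after adjustment), and r was -0.00757 without those 2 times, so that its r rests on them. FHIT had rho 0.6, MACROD2 0.486 and WWOX 0.143, with exact permutation p from 0.242 to 0.803 (adjusted p from 0.465 to 0.901). Their r was 0.284, 0.415 and 0.246, with exact permutation p from 0.426 to 0.622 (adjusted p from 0.608 to 0.765). Without those 2 times r was 0.690 for FHIT, -0.598 for MACROD2 and 0.217 for WWOX. Over all 8218 tests 0 passed after adjustment for either coefficient, and 1287 passed without adjustment by rho and 2205 by r. Of the windows alone, 15.7% had an unadjusted p of rho under 0.05, and 1 of the 5 genes did. The smallest p that rho allows with 6 lists is 0.00278.

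In peaks per 100 kb, the genes were ordered at 72 h IMMP2L (19.4), WWOX (15.6), MACROD2 (14.5), LRP1B (14.4) and FHIT (10.6). The order was the same at 0 h, with IMMP2L (13.0), WWOX (12.7), MACROD2 (11.6), LRP1B (9.99) and FHIT (8.12). The exact Poisson intervals of every pair of neighbours in these orders overlapped except those of LRP1B (12.7 to 16.2) and FHIT (9.0 to 12.4) at 72 h. Across the genome, 1.5 Mb windows had a median of 8.87 peaks per 100 kb at 0 h. Windows denser than IMMP2L were 29.1% of 1914 at 0 h, and windows denser than FHIT were 54.7%.

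Along the genes, peaks were far from even, and the pattern was kept over time. In windows of 250 kb counted from the 5′ end, the densest window of MACROD2 (from 750 to 1000 kb) had 20 peaks per 100 kb at 0 h, and its first window had 3.20. The densest window at 72 h was the same as at 0 h in 4 genes, and the sparsest was the same in all 5. In FHIT the densest was the last window at 72 h and the first at 0 h, when both held 26 peaks and the last was slightly longer. The contrast between densest and sparsest window was smaller at 72 h than at 0 h in each gene. It was 2.37 against 2.60 times in FHIT, 2.38 against 3.03 times in WWOX, 5.00 against 6.25 times in MACROD2, 1.62 against 3.07 times in IMMP2L and 2.08 against 4.0 times in LRP1B. Over the genome, 250 kb windows with means of 9 to 14.5 peaks had a 72 h to 0 h ratio of 1.29 relative to the totals. Those with means of 47.3 to 63 peaks had 0.932. Differences between dense and sparse windows thus shrank over the whole genome, and this is not particular to these genes.

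**Figure D3:**
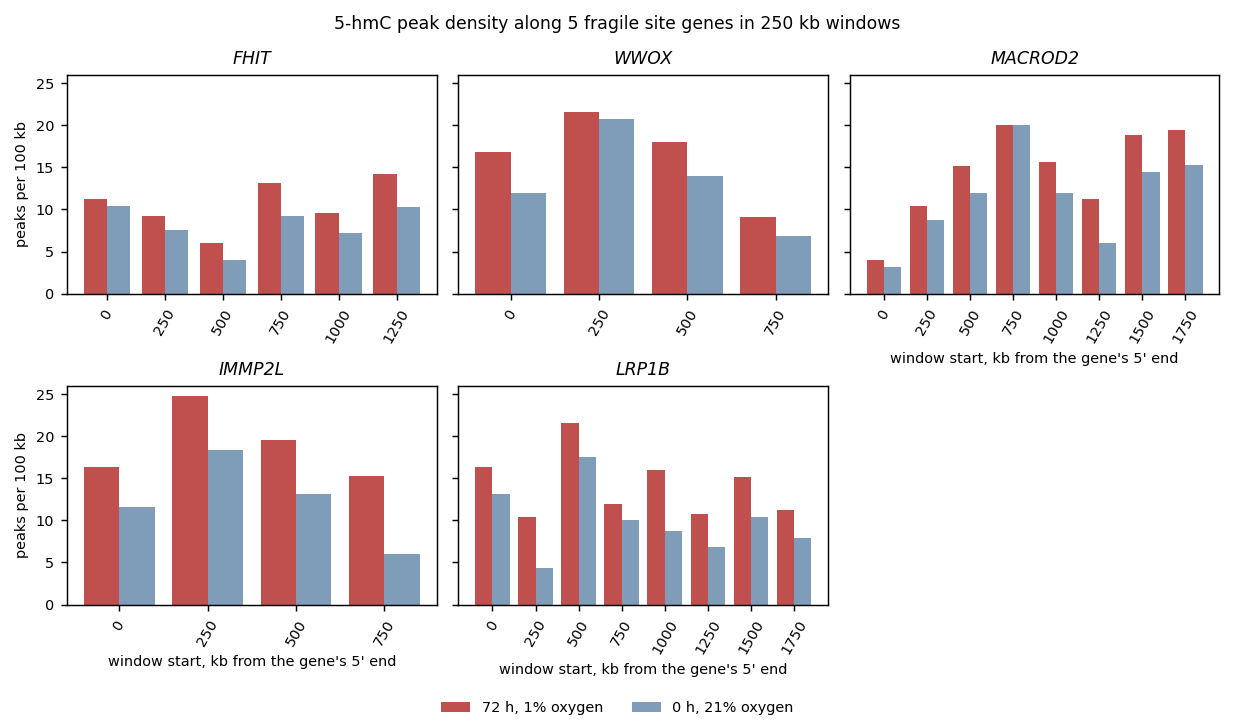
Peaks per 100 kb (vertical axis) in windows of 250 kb along each gene, labelled by the distance of the window's start from the gene's 5′ end in kb, at 72 h in 1% oxygen (red) and 0 h in 21% oxygen (blue). The last window of a gene takes up the remaining length. The tall and low windows are largely the same at both times, and the sparse last window of IMMP2L has 15.3 at 72 h and 6.00 at 0 h.

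Windows have no replicate, so one counted as higher or lower by a rule of size, when its peak number relative to the list total was at least 1.5 times that at 0 h or at most the inverse, with 0.5 added to both numbers, among windows with a mean of at least 10 peaks. All 30 windows of the 5 genes were of this kind. Of these, 2 were higher at 72 h, or 6.67%, against 7.29% of the 8213 windows of the genome. None was lower, against 0.292% of the genome's windows. At 48 h 3 were higher (background 5.67%), at 24 h 0 (2%), at 12 h 0 (0.816%) and at 6 h 1 (0.925%). None was lower at 6 h (0.609%), 12 h (0.548%), 24 h (0.219%) or 48 h (0.146%). The median ratio of the 30 windows at 72 h was 1.07, against 1.02 over the genome. These shares are near the background, and sparse windows gained more over the whole genome. With 6 h in place of 0 h 1 window was higher at 72 h (background 5.31%), and in windows of 500 kb none of 15 was (4.6%).

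The window with the highest ratio of 72 h to 0 h was the last one of IMMP2L (chromosome 7, 110303001 to 110453000, 150 kb long). It held 9 peaks in the 0 h list and 15, 12, 15, 18 and 23 in those of 6 to 72 h, and its ratio was 2.00 at 72 h. All 5 hypoxia lists were above 0 h there, also relative to the list totals. The window was picked for its ratio to 0 h, and all 5 comparisons share the same 9 peaks, so they are not independent of each other. In LRP1B the window from 250 to 500 kb (chromosome 2, 142390001 to 142640000) held 11, 15, 14, 15, 17 and 26 peaks from 0 to 72 h, a ratio of 1.87. It was the sparsest window of its gene at both 72 h and 0 h. Just under the threshold stood the sixth MACROD2 window (chromosome 20, 15226001 to 15476000), which held 15, 14, 15, 19, 27 and 28 peaks from 0 to 72 h, with a ratio of 1.49 at 72 h. The highest windows of FHIT and WWOX reached 1.20 and 1.13 at 72 h. In FHIT this was the third window, the sparsest of that gene.

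The window with the lowest ratio at 72 h was the densest of its gene at 0 h in FHIT, WWOX, MACROD2 and IMMP2L. The 0 h number is the denominator of the ratio, so a window high at 0 h tends to a low ratio and a sparse one to a high ratio. Dense windows had lower ratios over the whole genome too, so this is no separate result about these genes. The fourth MACROD2 window (chromosome 20, 14726001 to 14976000) held 50, 49, 49, 44, 48 and 50 peaks from 0 to 72 h, and its ratio was 0.810 at 72 h with the higher list total. The second WWOX window (chromosome 16, 78383001 to 78633000) held 52, 51, 47, 50, 56 and 54, with a ratio of 0.840. In FHIT the lowest was the first window, with 28 peaks at 72 h and 26 at 0 h (ratio 0.871). The lowest ratio in IMMP2L was 1.09 and that in LRP1B 0.968.

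**Figure D4:**
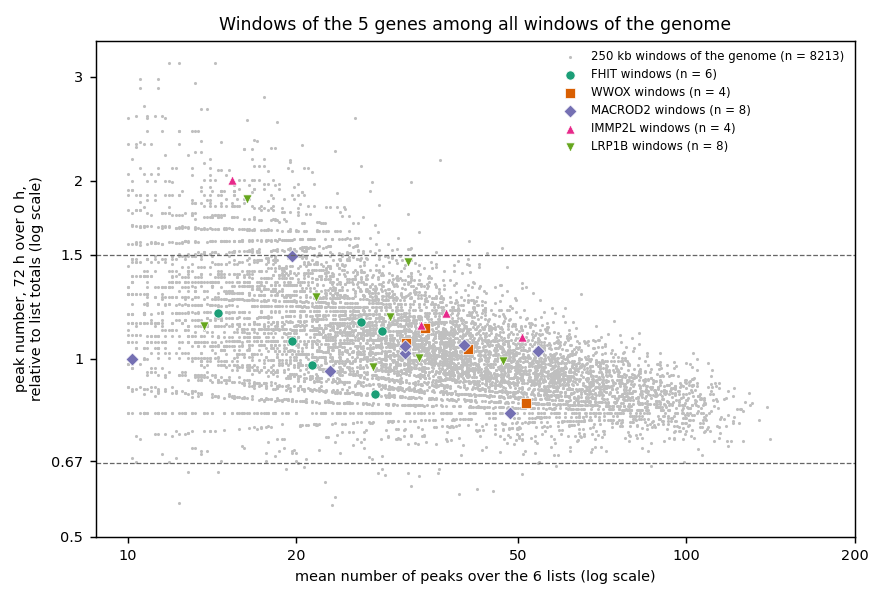
The 72 h peak number over the 0 h one, relative to the list totals (vertical axis, log scale), against the mean number of peaks over the 6 lists (horizontal axis, log scale). Grey points are 8213 windows of 250 kb across the genome, coloured symbols are the 30 windows of the 5 genes, and dashed lines mark 1.5 and its inverse. The gene windows lie within the cloud of the genome, and 2 of them, in IMMP2L and LRP1B, lie above the upper line.

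The next question was whether the same sites carried peaks in hypoxia and normoxia. In the 5 genes, 65.7% of 72 h peaks overlapped a 0 h peak by at least 1 bp (95% Clopper-Pearson interval 62.8 to 68.5%), against 70.3% in the whole 72 h list. In reverse, 88.8% of 0 h peaks overlapped a 72 h peak (86.4 to 90.8%), against 89.8% in the whole 0 h list. LRP1B had the smallest share of 72 h peaks at sites of 0 h, 60.8% (54.7 to 66.6%), followed by IMMP2L with 61.1% (53.5 to 68.4%), and neither interval reached the whole list's share. The other genes had 67.9% (FHIT), 68.4% (WWOX) and 70.1% (MACROD2), with intervals that include it. These 2 genes were set apart after their values were seen. At 6 h 76% of IMMP2L peaks and 89% of MACROD2 peaks were at sites of 0 h, against 82.4% of that list.

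Peaks without a 0 h counterpart were narrow. The 370 such peaks in the 5 genes at 72 h had a median width of 318 bp, against 449 bp for the 709 at sites of 0 h, and 25 of them reached 500 bp. LRP1B had 107 of them, MACROD2 89, IMMP2L 68, WWOX 55 and FHIT 51. Of 72 h peaks of 500 bp or wider, 91.6% in the genes and 94.1% in the whole list overlapped a 0 h peak. Wide peaks were thus mostly shared over the whole list too, and this is not particular to these genes. Peaks of 0 h that the 72 h list lacked numbered 22 in WWOX (15.5%), 26 in MACROD2 (10.9%), 13 in FHIT (10.7%), 20 in LRP1B (10.5%) and 10 in IMMP2L (8.55%), against 10.2% of the whole 0 h list. With an overlap of at least 0.5 of both peaks, 60.5% of 72 h peaks were shared, against 62.4% in the whole list.

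**Figure D5:**
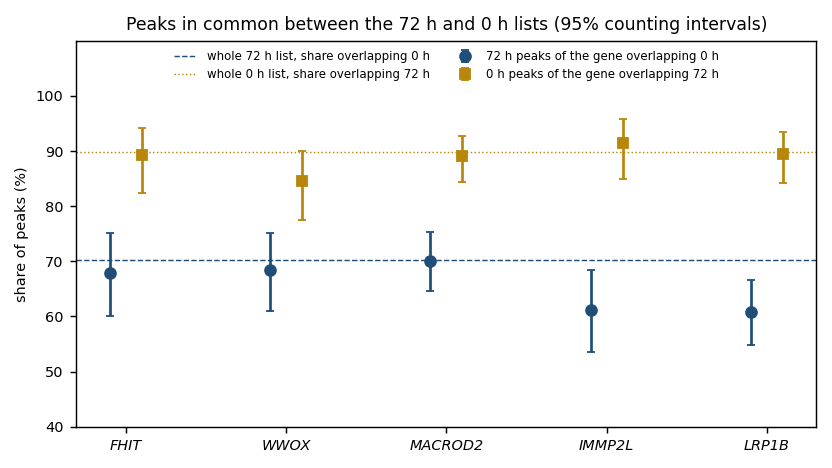
Share of peaks in common between the 72 h (1% oxygen) and 0 h (21% oxygen) lists in each gene, in percent. Blue circles are 72 h peaks of the gene that overlap 0 h, yellow squares are 0 h peaks that overlap 72 h, bars are 95% Clopper-Pearson intervals, and lines mark the same shares over the whole lists. The circles of IMMP2L (61.1%) and LRP1B (60.8%) lie below the line at 70.3%, with intervals that do not reach it.

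After merging of overlapping peaks, 567 of the 1303 regions in the 5 genes (43.5%, interval 40.8 to 46.3%) were present in all 6 lists, against 46.9% of all regions of the genome. The share was highest in MACROD2 (48.3%) and lowest in IMMP2L (40.2%). Present at all 5 hypoxia times and not at 0 h were 30 regions (2.30%, against 3.0% in the genome), of which LRP1B held 10, WWOX 7, MACROD2 5, FHIT 4 and IMMP2L 4. At 72 h alone were 118 (9.06%, against 7.12%). By share of a gene's regions this was 11% in LRP1B, 10.3% in IMMP2L, 9.09% in MACROD2, 7.65% in FHIT and 6.28% in WWOX. At 0 h alone were 21 (1.61%, against 1.84%), with 7 in WWOX, 5 in IMMP2L, 4 in FHIT, 3 in LRP1B and 2 in MACROD2.

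Among regions present at the 5 hypoxia times and not at 0 h, the one with the widest 72 h peak in each gene was as follows. In WWOX it lay on chromosome 16 from 78397676 to 78398538, with peaks of 625 bp at 6 h, 575 bp at 12 h, 711 bp at 24 h, 689 bp at 48 h and 734 bp at 72 h. In LRP1B it lay on chromosome 2 from 142460795 to 142461525, inside the window with 26 peaks at 72 h, and measured 450, 448, 623, 661 and 731 bp from 6 to 72 h. The WWOX and LRP1B regions were both over 440 bp from 6 h on, wider than the median peak of their lists. As they were picked for a wide 72 h peak, this does not describe such regions in general. In FHIT the region (chromosome 3, 60711517 to 60712263) measured 452, 400, 574, 717 and 606 bp from 6 to 72 h. Those of IMMP2L (chromosome 7, 111183244 to 111183745) and MACROD2 (chromosome 20, 15200836 to 15201317) reached 502 and 443 bp at 72 h. All of these lie inside the gene bodies, and whether they are exonic or intronic was not analysed here.

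Regions at 0 h alone were small. The widest in each gene measured between 279 bp (LRP1B) and 371 bp (MACROD2, chromosome 20, 14937989 to 14938359). The widest regions kept in all lists changed in different ways. In FHIT (chromosome 3, 59797570 to 59799333) the peak lay between 1505 and 1757 bp, and in IMMP2L (chromosome 7, 110406673 to 110408320) it lay between 1552 and 1640 bp in all 6 lists. The WWOX region (chromosome 16, 79046198 to 79048390) had 1 peak of 2148 bp at 0 h and 2 adjacent peaks in each hypoxia list, which together covered 1690, 1657, 1665, 1847 and 1670 bp from 6 to 72 h. The stretch was thus called in 2 pieces at all 5 hypoxia times and in 1 piece at 0 h. In MACROD2 (chromosome 20, 14895388 to 14897942) the region held 2, 3, 3, 1, 2 and 3 peaks from 0 to 72 h, covering 2083, 2257, 2229, 2415, 2388 and 1788 bp.

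Of the 567 regions in all lists, 399 (70.4%) had a wider peak at 72 h than at 0 h, against 71.0% in the genome. The widest peak of each region was compared, so a peak called in pieces at 1 time counts as narrower there. In LRP1B this was 81.2% of 133 regions (interval 73.5 to 87.5%), with median widths of 476 bp (72 h) and 395 bp (0 h). In MACROD2 it was 61.2% of 170 regions (53.4 to 68.5%), with 486 bp (72 h) and 422 bp (0 h). The intervals of these 2 genes lay above and below the genome's share, and those of FHIT (62.9%), WWOX (74.2%) and IMMP2L (75.6%) included it. The narrowest peak measured 242 bp in the 72 h list and 226 bp in the 0 h list, and its part in the wider peaks was not tested.

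Stretches empty of peaks were measured last, since deletions inside these genes are common in tumours. For the genes, only stretches between neighbouring regions inside the same gene are given. A longer one crosses the MACROD2 start and is left out. In no list was the nearest peak closer than 185.7 kb before that start or 40.7 kb inside it. The longest stretch without a peak in any list was 89.8 kb in MACROD2 (chromosome 20, 14016900 to 14106712), 70.5 kb in WWOX (chromosome 16, 79122500 to 79193015), 56.7 kb in FHIT (chromosome 3, 60827267 to 60883935), 51.8 kb in LRP1B and 23.2 kb in IMMP2L. The genome held 4717 such stretches of at least 50 kb, of which 4 lay in these genes, and 2207 were at least as long as that in MACROD2. The genes held 1303 of the 414390 regions, a larger share than their share of these stretches. As stretches across a gene's edge were not counted for the genes, the shares are not a like comparison. Copy number was not analysed here. The median distance between neighbouring regions was 2.25 to 3.25 kb in the 5 genes, against 1.85 kb in the genome. This does not make the genes sparser by length. They held 14.4 peaks per 100 kb at 72 h and 10.8 at 0 h, against 11.6 and 9.37 over all windows of the genome.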

How the data were processed

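Genomic DNA of SK-N-BE(2) cells was sheared, 5-hmC was tagged with an azide glucose and biotin, and tagged fragments were captured and sequenced, per the labels' protocols. Of the 7 samples, the input has no list and was not analysed here. The deposited lists hold 3 columns, chromosome, start and end, with no score. Per the submitters' processing notes the tools included BWA 0.7.17, MACS2 and HTSeq, with build hg19. For peak calling, neither a threshold nor a control library is stated.

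Peaks on chromosomes 1 to 22 and X were counted by midpoint and divided by the list's total. A gene's last 250 kb window, when under 0.5 of that size, joined the one before it. The 1.5 Mb windows, with a mean of at least 60 peaks for ratios, were chosen after the values were seen. Regions in hg19 are given 1-based. Named windows are the highest and lowest of each gene at 72 h. Named regions are the widest gained, lost and constant ones. Genes and tests were chosen with earlier results of these data known. No hg19 annotation was at hand, so exons and other fragile site genes were not run. The strand of LRP1B is textbook knowledge, and the others come from RefSeq. A further gene of the set is not reported here. Matplotlib 3.10.9, pandas 2.3.3, SciPy 1.17.1 and NumPy 2.4.6 were used under Python 3.11.15, and the functions were tested on simulated data. Alternatives changed the window size, the ratio, the overlap, the reference, the peaks counted (by width, by number or by covered length) and the lists used.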

Additional observations from a re-analysis of the deposited data

How the results depend on the processing

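No paired analysis was possible because each time has 1 library. Of 143 alternatives, 116 stayed within the counting interval of the reported value, within 1.5 times the reported count or, for rho, on the same side of 0 and of the threshold. Within these bounds single values still moved, such as the ratio of 72 h to 0 h with peaks of at least 500 bp, which was 1.30 for FHIT (1.06 as reported) and 0.980 for IMMP2L (1.21). Of the single genes' ratios, 2 fell outside the interval, both of LRP1B (1.16 as reported, interval 0.963 to 1.41). They were 0.961 with flanks as reference and 1.44 with peaks of at least 500 bp. The value of 1.44 rests on 67 peaks at 72 h and 34 at 0 h, fewer than the interval was made for. Its own counting interval was not computed. The ratio of 72 h to 0 h for the 5 genes together ranged from 1.00 (flanks as reference) to 1.09 (peaks of at least 500 bp). No gene's rho passed under any alternative. With 1 list left out, the smallest exact permutation p is 0.0167. LRP1B reached it with rho 1 without the 0 h list and without the 6 h list (Benjamini-Hochberg adjusted p = 0.252 and 0.191). Alternatives with a list left out could thus hardly pass, and their staying on the same side of the threshold says little. With the list of each time left out, rho was 0.3 to 0.9 for FHIT, -0.1 to 0.7 for WWOX, 0.1 to 0.8 for MACROD2, 0.2 to 0.9 for IMMP2L and 0.9 to 1 for LRP1B. For MACROD2 it was -0.143 by covered length and -0.257 when only peaks from 500 bp up counted, and with the same number of peaks in each list, widest first, it was -0.257, and -0.203 for FHIT. Windows higher at 72 h, 2 as reported, are given with the share over the genome. They numbered 8 of 70 at 100 kb (11.7%), where 2 were lower (1.90%), 0 of 15 at 500 kb (4.6%), 5 of 30 at a ratio of 5 to 4 (19.9%) and 1 of 30 at a ratio of 2 (1.14%). By covered length 4 of 30 were higher (9.64%), counting only peaks from 500 bp up 1 of 9 (4.62%), and with 6 h as reference 1 of 30 (5.31%). The share of 72 h peaks found at 0 h was 60.5% with overlap of 0.5 of both (whole list 62.4%), 91.6% among peaks from 500 bp up (94.1%) and 74.9% with the same number of peaks in each list (79.2%). In the same order, the share of 0 h peaks found at 72 h was 80.7% (77.0%), 98.5% (99.2%) and 80.2% (82.7%). Among peaks from 500 bp up, 112 of 395 regions (28.4%, genome 38.7%) were in all 6 lists, 10 (2.53%, genome 3.45%) in the 5 hypoxia lists without 0 h and 13 (3.29%, genome 1.69%) at 0 h alone, above the genome's share where the reported value is below it. All lists were cut by width here, so 0 h alone means that no hypoxia peak at the site reached 500 bp. It does not mean loss of the site, since with all peaks counted the widest region at 0 h alone measured 371 bp. With the same number of peaks in each list, 38 of 1145 regions were at 0 h alone (3.32%, genome 3.21%), with narrow peaks removed from the hypoxia lists by construction. Merging over gaps of up to 300 bp left 13 of 1182 (1.10%, genome 1.60%). The other causes were not tested. Depth is unknown, so its effect has no value here.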
